A study of Homo sapiens with 18 samples.

Results

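The genes for the proteins of the cytosolic ribosome were followed in the human breast cancer line SKBR3, an established cell line known for its amplified ERBB2 gene, and in a lapatinib-resistant line named for the same cells. Genes were taken by symbol, as RPL or RPS with a number and an optional A, L, X or Y, together with RPSA and the stalk proteins RPLP0, RPLP1 and RPLP2, leaving out pseudogenes, the RPS6K kinases and RPS13. Of 18852 genes with a probe, 71 fitted that description, with 119 probes. Of these, 69 were bright enough to be tested, among 12547 tested genes in all. They comprised 40 proteins of the large subunit, 24 of the small subunit, the 2 stalk proteins RPLP1 and RPLP2, and 3 paralogs, RPL10L, RPL39L and RPS27L. RPL10 and RPL3L did not pass the filter on dim probes. RPSA and RPLP0 were not analysed here.

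Resistant and parental cells were each sampled with no drug (basal), with 0.1 µM lapatinib and with 1 µM lapatinib, an inhibitor of the EGFR and ERBB2 kinases. Each of the 6 groups had 3 Illumina expression arrays, 18 in all. The labels give neither the length of treatment, nor how resistance was obtained, nor whether the resistant cells are 1 clone, nor whether replicates come from different cultures, and the spread between arrays that the p-values rest on may be technical. Values below are log2 signals after background correction and quantile normalization. A gene is called changed where the Benjamini-Hochberg adjusted p over all tested genes in limma was under 0.05. Each log2 difference is given with its standard error (SE).

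A ribosome is built from a small subunit, which reads the message, and a large subunit, which joins the amino acids, with the acidic stalk of the large subunit recruiting the elongation factors. The messages of nearly all its proteins begin with a C inside a run of pyrimidines, the 5′ terminal oligopyrimidine (TOP) tract, through which mTOR, a kinase downstream of ERBB2 and PI3K, is known to control how well they are translated. Arrays measure the amount of message and not its translation. The labelled amount of RNA was the same for every sample, so the values are shares of a fixed amount of RNA, and in such bulk samples fewer cells carrying a message and less of it per cell cannot be told apart.

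A TOP tract was looked for in the promoter windows of RefSeq (GRCh38.p14), which matched 59 of the 71 genes. A run of 7 or more C or T on the gene's own strand, within 10 bases of the annotated start, was found in 48 of 59 (81.36%), against 20.88% of all 27305 promoters. On the other strand the shares were 3.39% of the ribosomal protein promoters and 18.36% of all promoters. The annotated start itself was a C in 72.88% of the ribosomal protein promoters and in 14.99% of all, and the longest run near the start had a median of 11 bases against 4. The run held the start base in 38 of the 59 promoters. Searched on both strands over the 300 bases, the letters CCGGAAGT occurred in 16.95% against 4.435% of all promoters, AAGATGGC in 10.17% against 3.032%, and CACGTG in 5.085% against 7.435%. Windows of 30 bases, 15 before the start and 15 from it, are shown for 8 genes described below, 6 that changed with lapatinib in both lines and 2 that differed between the lines, so that their tracts can be compared. RPL37 and RPL39L are named only. They are printed 5′ to 3′ on the gene's strand with the run in capitals.
RPS7, chr2:3575245-3575274, plus strand: gtttccgCCCTCCTCCTCgcgctgtttccg
RPL29, chr3:51995881-51995910, minus strand: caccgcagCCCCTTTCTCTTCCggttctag
RPL36A, chrX:101390996-101391025, plus strand: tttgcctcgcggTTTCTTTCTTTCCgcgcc
RPL13A, chr19:49487593-49487622, plus strand: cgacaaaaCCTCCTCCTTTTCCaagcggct
RPL34, chr4:108620561-108620590, plus strand: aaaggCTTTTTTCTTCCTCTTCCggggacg
RPS23, chr5:82278340-82278369, minus strand: tcctgcggtgCTTCTCTCTTTCgctcaggc
RPL28, chr19:55385917-55385946, plus strand: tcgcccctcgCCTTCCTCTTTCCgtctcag
RPL22, chr1:6199581-6199610, minus strand: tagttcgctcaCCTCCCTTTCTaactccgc
Such a run was also absent near the annotated start of common members, among them RPL3, RPL6, RPL11, RPL32 and RPS29. A single annotated start per gene was searched, so these windows do not show that the messages lack a TOP tract. Of the genes without a run, the windows of RPL10L and RPS27L, each a paralog of a different gene, read as follows.
RPL10L, chr14:46651767-46651796, minus strand: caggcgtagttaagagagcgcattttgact
RPS27L, chr15:63157463-63157492, minus strand: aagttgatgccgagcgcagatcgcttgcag

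The arrays differed in brightness, with a mean signal of 417 to 675 and a highest signal of 44242 to 64157 per array. Of the 69 ribosomal protein probes, 13 to 33 were over 0.5 of the array's highest signal, and the 69 made up 4.84% to 6.88% of all signal. Of the 7 markers fixed for the labelled line, 6 (ERBB2, GRB7, KRT8, KRT18, KRT19 and EPCAM) were above background on all arrays and the epithelial cadherin CDH1 on none. Of other cell types, 0 of 6 fibroblast markers and 2 of 5 leukocyte markers with a probe were above background on all arrays, and COL1A2, COL3A1, LUM and PTPRC were above it on none. Of the 4 endothelial markers, 3 were above background on all arrays, with a summed signal of 427 to 643. At 1 µM against basal the 4 endothelial genes had a median change of -0.02 in resistant cells (2 positive, 2 negative) and 0.05 in parental cells (3 positive, 1 negative), and VWF was the one called, at 0.87 in resistant and 0.46 in parental cells. Between resistant and parental cells VWF was called higher at 0.1 µM (0.43) and 1 µM (0.58), CDH5 lower at basal (-0.42) and 1 µM (-0.67), and the leukocyte marker LYZ higher at basal (0.50) and 0.1 µM (0.51). Of the 3 leukocyte and 2 fibroblast markers tested, 0 were called with the drug at 1 µM by limma, with 0 in resistant and 2 in parental cells at an unadjusted p under 0.05. The part of these markers in the results below was not tested.

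Replicate 3 of the resistant 0.1 µM group stood apart in the ribosomal protein genes. On it, 18 of the 69 (26.1%) lay more than 0.5 below the mean of the other 2 arrays of the group, against 5.22% of all tested genes. On each of the other 17 arrays taken the same way, 0 to 2 of the 69 did. It was the lowest of all 18 arrays for 31 of the genes, and their summed signal was 4.84% of the array's total, against 6.25% and 6.37% on its sister arrays. Counts under the main processing are given with and without it, and since all groups share 1 estimate of spread, leaving it out also moved counts elsewhere.

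With 1 µM lapatinib, 8 ribosomal protein genes changed in both lines, each in the same direction in the one as in the other. RPS7, RPL29, RPL36A and RPL39L fell, and RPL13A, RPL37, RPS23 and, on its brighter probe, RPL34 rose. In resistant cells 12 of 69 were called, 8 higher and 4 lower, against 23.1% of all tested genes, of which 10.9% were higher and 12.1% lower. Parental cells also had 12, 6 higher and 6 lower, against 28% of all tested genes, of which 14.3% were higher and 13.6% lower. With all arrays the shares called were thus below those over all genes. The median change of the 69 was 0.05 in resistant and 0.05 in parental cells. Before normalization the 69 genes made up 6.21% to 6.32% of all signal at 1 µM against 5.84% to 6.09% at basal in resistant cells, and 6.47% to 6.62% against 5.78% to 6.27% in parental cells, with no overlap in either line. The 1 µM arrays were also dimmer, with a mean signal of 438 against 481 at basal in resistant and 505 against 646 in parental cells. Whether these unscaled shares moved with brightness was not tested. Called in opposite directions in the lines were 0 of 69, and 47 had the same sign. Without the array that stood apart, 20 were called in resistant cells (13 higher, 7 lower) and 20 in parental cells (13 higher, 7 lower), including all 12 of each line. In that fit RPL5 and RPL22 also rose in both lines and RPS21 also fell in both. Of all tested genes, 26.8% were called in resistant and 31.4% in parental cells. The share of the 69 called was then slightly above that over all genes in resistant cells and below it in parental cells. With arrays scaled to the median of all probes, which moved the median of all tested genes to -0.06 in resistant and -0.14 in parental cells, all 8 kept their direction and all 8 were called in resistant cells. Under it 38 of the 69 changes were negative in resistant cells (median -0.01; 4 called higher, 5 lower) and 62 in parental cells (median -0.14; 1 higher, 11 lower). In parental cells that scaling kept the 4 falls and the rise of RPL37 but not the calls of RPL13A (0.26, adjusted p = 0.124), RPL34 (0.23, adjusted p = 0.164) and RPS23 (0.11, adjusted p = 0.557).

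**Figure D1:**
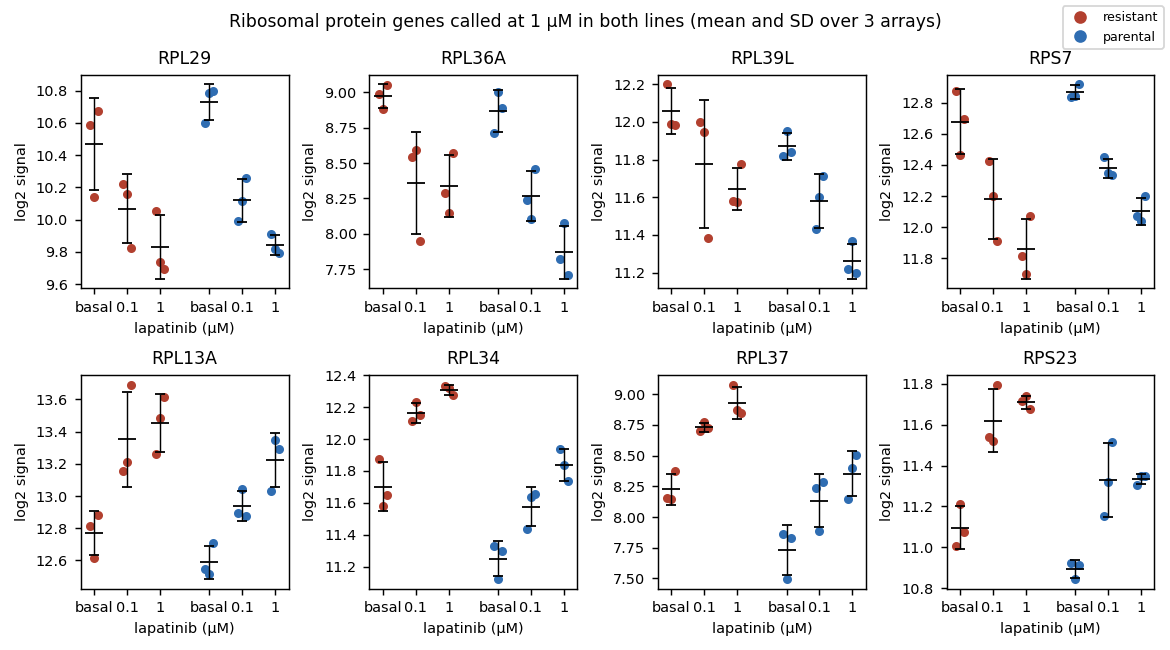
Log2 signal of the 8 ribosomal protein genes called at 1 µM in both lines, by lapatinib concentration (basal, 0.1 and 1 µM) in resistant (red, left) and parental (blue, right) cells. Points are arrays and bars the mean and SD of 3 arrays. RPL29, RPL36A, RPL39L and RPS7 are lower at 1 µM than at basal on every array of each line, and RPL13A, RPL37, RPS23 and the brighter probe of RPL34 higher.

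RPS7, a small-subunit protein also known to bind MDM2, fell in both lines. In resistant cells its log2 signal was 12.88, 12.46 and 12.70 at basal, 12.43, 12.20 and 11.91 at 0.1 µM and 11.81, 11.70 and 12.07 at 1 µM. In parental cells it was 12.84, 12.85 and 12.92 at basal, 12.45, 12.35 and 12.33 at 0.1 µM and 12.07, 12.04 and 12.20 at 1 µM. All arrays at 1 µM thus lay below all basal arrays in each line, with the 0.1 µM arrays largely between them. The change at 1 µM was -0.82 ± 0.12 in resistant cells (adjusted p = 7.92e-06) and -0.76 ± 0.12 in parental cells (adjusted p = 1.50e-05). At 0.1 µM it was already -0.50 in resistant and -0.49 in parental cells, both called. The second RPS7 probe fell too, by 1.04 in resistant and 0.83 in parental cells at 1 µM.

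RPL29, a large-subunit protein that mice can live without, had a log2 signal of 10.59, 10.14 and 10.67 at basal, 10.22, 10.16 and 9.82 at 0.1 µM and 10.05, 9.74 and 9.70 at 1 µM in resistant cells. In parental cells it was 10.60, 10.79 and 10.80 at basal, 9.99, 10.11 and 10.26 at 0.1 µM and 9.91, 9.82 and 9.79 at 1 µM. The groups at 1 µM and basal did not overlap in either line, and at 0.1 µM the parental arrays were all below basal while 2 resistant ones lay above the lowest basal array. RPL29 changed at 1 µM by -0.64 ± 0.13 in resistant cells (adjusted p = 0.000467) and by -0.89 ± 0.13 in parental cells (adjusted p = 5.10e-06). Its other probe fell by 0.65 in resistant and 0.87 in parental cells.

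RPL36A, another large-subunit protein, showed the largest fall in parental cells, to 0.501 times the basal signal. Its log2 signal in resistant cells was 8.99, 8.88 and 9.05 at basal, 8.54, 8.60 and 7.95 at 0.1 µM and 8.29, 8.15 and 8.57 at 1 µM. Parental cells had 8.71, 9.002 and 8.89 at basal, 8.24, 8.10 and 8.46 at 0.1 µM and 7.82, 8.08 and 7.71 at 1 µM. Treated arrays were below basal ones at both concentrations in each line. The 1 kept probe of RPL36A was dim, at a raw signal of 227 to 637 on arrays with a background of 70 to 94. The change at 1 µM was -0.63 ± 0.15 in resistant cells (adjusted p = 0.00204) and -0.998 ± 0.15 in parental cells (adjusted p = 7.34e-06). RPL36A has a near-identical relative, RPL36AL, and the sequence of the probe was not used here, so the signal may be shared; the RPL36AL probe itself changed by -0.19 in resistant and 0.07 in parental cells, neither called. At 0.1 µM the fall of RPL36A in resistant cells was -0.61 (adjusted p = 0.0099), and without the array that stood apart it was -0.40 and not called (adjusted p = 0.0765).

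RPL39L is a paralog of RPL39 that is known to replace it in male germ cells and is made in some tumours. In resistant cells it had a log2 signal of 12.20, 11.99 and 11.98 at basal, 11.997, 11.95 and 11.38 at 0.1 µM and 11.58, 11.58 and 11.77 at 1 µM. In parental cells the values were 11.82, 11.95 and 11.84 at basal, 11.43, 11.60 and 11.71 at 0.1 µM and 11.22, 11.37 and 11.20 at 1 µM. At 1 µM it was lower than at basal on every array, with a change of -0.41 ± 0.12 in resistant cells (adjusted p = 0.0143) and of -0.61 ± 0.12 in parental cells (adjusted p = 0.000354). A second probe changed by -0.45 in resistant and -0.69 in parental cells, both called. The call in resistant cells was lost without basal replicate 1 (-0.34, adjusted p = 0.0827) or without replicate 1 or 2 at 1 µM (adjusted p = 0.059 and 0.062). The common form RPL39 was at 14.95, 14.85 and 15.03 at basal and 14.97, 14.97 and 14.99 at 1 µM in resistant cells, and at 15.002, 14.94 and 14.92 at basal and 15.03, 14.90 and 14.94 at 1 µM in parental cells. The groups overlapped for RPL39 and it was not called.

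Of the genes that rose, RPL13A is a large-subunit protein also known as part of a complex that silences inflammatory messages. Its log2 signal in resistant cells was 12.81, 12.62 and 12.89 at basal, 13.16, 13.21 and 13.69 at 0.1 µM and 13.26, 13.48 and 13.62 at 1 µM. Parental cells had 12.55, 12.51 and 12.71 at basal, 12.89, 13.04 and 12.88 at 0.1 µM and 13.03, 13.35 and 13.29 at 1 µM. Every treated array was above every basal array of its line. The change at 1 µM was 0.68 ± 0.13 in resistant cells (adjusted p = 0.000165) and 0.63 ± 0.13 in parental cells (adjusted p = 0.000303).

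RPS23 sits at the decoding centre of the small subunit and helps to keep translation accurate. In resistant cells it was at 11.01, 11.21 and 11.07 at basal, 11.54, 11.52 and 11.80 at 0.1 µM and 11.71, 11.74 and 11.67 at 1 µM. Parental cells had 10.92, 10.85 and 10.91 at basal, 11.15, 11.32 and 11.51 at 0.1 µM and 11.31, 11.35 and 11.35 at 1 µM. The rise was present on every treated array, and at 1 µM came to 0.61 ± 0.10 in resistant cells (adjusted p = 3.00e-05) and 0.44 ± 0.10 in parental cells (adjusted p = 0.00107). At 0.1 µM it was 0.52 in resistant and 0.44 in parental cells, both called.

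RPL37, a small protein of the large subunit, was at 8.16, 8.14 and 8.37 at basal, 8.70, 8.77 and 8.72 at 0.1 µM and 9.08, 8.87 and 8.84 at 1 µM in resistant cells. Parental cells had 7.86, 7.50 and 7.83 at basal, 8.23, 7.89 and 8.28 at 0.1 µM and 8.15, 8.40 and 8.50 at 1 µM. Treated arrays were again all above basal ones within a line, and resistant arrays above parental ones at each concentration. The RPL37 probe was dim, at a raw signal of 219 to 485 on arrays with a background of 70 to 94. The change at 1 µM was 0.71 ± 0.13 in resistant cells (adjusted p = 0.000132) and 0.62 ± 0.13 in parental cells (adjusted p = 0.000447). A dimmer second probe changed by 0.30 in resistant and 0.16 in parental cells, neither called. The smaller rises at 0.1 µM were 0.51 in resistant and 0.40 in parental cells. They were called, but the parental call was lost on leaving out basal replicate 2 or 3 or replicate 1 or 3 at 0.1 µM (adjusted p = 0.0522 to 0.229), and the resistant one without basal replicate 1 or 2 (adjusted p = 0.0559 and 0.0588).

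For RPL34, also of the large subunit, the direction depended on the probe. The brighter probe gave 11.87, 11.58 and 11.65 at basal, 12.11, 12.24 and 12.15 at 0.1 µM and 12.34, 12.32 and 12.27 at 1 µM in resistant cells. In parental cells it gave 11.33, 11.12 and 11.29 at basal, 11.44, 11.63 and 11.66 at 0.1 µM and 11.94, 11.84 and 11.74 at 1 µM. On it RPL34 rose at 1 µM by 0.61 ± 0.10 in resistant cells (adjusted p = 2.79e-05) and by 0.59 ± 0.10 in parental cells (adjusted p = 3.32e-05). The other probe changed by -0.42 in resistant cells (adjusted p = 0.0737) and by -0.64 in parental cells, where it was called lower (adjusted p = 0.00449). The mean of both probes in parental cells was -0.03, so the RPL34 rise is a result of 1 probe.

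The size of the response was similar in the lines for these genes as far as the arrays could resolve it. The difference of the responses at 1 µM, resistant minus parental, was largest for RPL36A at 0.36, with a 95% interval of -0.07 to 0.79. It was 0.25 for RPL29 (interval -0.12 to 0.62), 0.20 for RPL39L (-0.16 to 0.55), 0.17 for RPS23 (-0.11 to 0.46) and -0.05 for RPS7 (-0.40 to 0.29). Of the 69 genes, 0 were called for this difference by limma at 1 µM and 0 at 0.1 µM, with 3 at each concentration at an unadjusted p under 0.05, and over all tested genes 0.685% and 0.00797% were called. All 69 intervals at 1 µM lay between -0.91 and 0.95. Across the 69 genes the 1 µM responses of the lines, which share no arrays, had a Pearson r of 0.84 and a Spearman rho of 0.66, against r = 0.77 over all tested genes. These are correlations over genes, which are not independent replicates, on arrays of 1 platform.

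**Figure D2:**
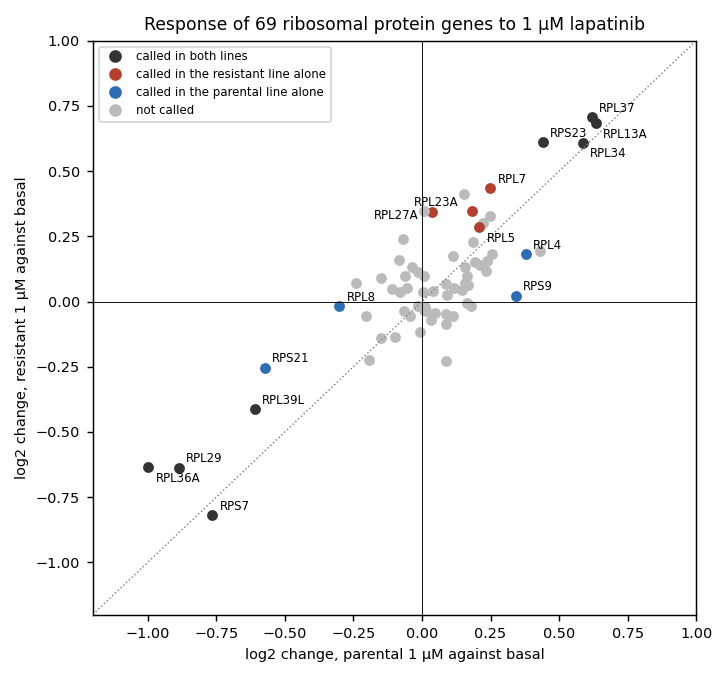
Log2 change at 1 µM against basal in resistant cells (vertical) and parental cells (horizontal), 1 point per ribosomal protein gene, with the dotted line marking equal change. Black points, called in both lines, lie at the ends near the line: RPS7, RPL29, RPL36A and RPL39L at the lower left, RPL13A, RPL34, RPL37 and RPS23 at the upper right. Most of the 69 genes lie between -0.25 and 0.25 in both.

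Smaller changes were called in one line. In resistant cells at 1 µM RPL7 changed by 0.44, RPL27A by 0.34, RPL23A by 0.35 and RPL5 by 0.28, and the groups' arrays overlapped for RPL23A. RPL7 was not called without basal replicate 3 (0.33, adjusted p = 0.0784), nor RPL27A without replicate 2 at 1 µM (0.30, adjusted p = 0.0654). In parental cells at 1 µM RPL4 changed by 0.38, RPS9 by 0.34, RPS21 by -0.57 and RPL8 by -0.30. Scaled to the median of all probes, RPL7, RPL27A, RPL4 and RPS9 were not called (0.32, 0.26, 0.11 and 0.03), and RPL8 was not with cyclic loess (-0.09). Scaled to the median of the tested genes, RPL8 (-0.18, adjusted p = 0.289) and RPS9 (0.23, adjusted p = 0.138) were not called. RPL4 and RPS9 also lost the call without parental basal replicate 1 or without replicate 2 at 1 µM (adjusted p = 0.0557 to 0.152). RPL8, whose protein lines the peptidyl transferase centre, kept its fall at -0.31 to -0.29 but lost the call on leaving out any of 4 of the 6 arrays (adjusted p = 0.0564 to 0.0702). RPS21 was at 12.71, 12.47 and 12.48 at 1 µM and at 13.05, 13.18 and 13.15 at basal in parental cells, with no overlap. Its adjusted p was 0.0491 with an SE of 0.22, estimated over all groups, the array that stood apart included. The call of RPS21 was lost on leaving out any of 15 of the 18 arrays (adjusted p = 0.053 to 0.136), with no filter (0.0526), with the mean of probes (0.0738) and with no intensity trend (0.0639).

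Several well-known members did not pass the test. RPS6, the target of the S6 kinases, changed at 1 µM by 0.09 in resistant and -0.15 in parental cells, with arrays of 15.41, 15.29 and 15.44 at 1 µM against 15.41, 15.19 and 15.26 at basal in resistant cells. The stalk proteins RPLP1 and RPLP2 changed by 0.13 and 0.05 in resistant cells and by -0.04 and -0.06 in parental cells. RPL11, which with RPL5 and the 5S RNA can bind MDM2 and so stabilise p53, changed by -0.03 in resistant and 0.01 in parental cells. RPL5 itself was called in resistant cells, at 14.29, 14.27 and 14.16 at 1 µM against 13.85, 14.00 and 14.01 at basal, and changed by 0.21 in parental cells (adjusted p = 0.135). RPL41, the shortest of the proteins, changed by 0.10 in resistant and 0.01 in parental cells. Of the paralogs, the p53 target RPS27L changed by -0.23 in resistant and -0.19 in parental cells. Without the array that stood apart, RPS27L was called lower in resistant cells at 1 µM. RPL10L, a form known from testis, changed by -0.14 in resistant and -0.15 in parental cells. Its probe was near background, at a raw signal of 92 to 158 on arrays with a background of 70 to 94. With SEs of 0.10 to 0.16 the changes above do not show that the genes were unaffected.

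At 0.1 µM fewer genes were called. In resistant cells 7 of 69 were, 5 higher and 2 lower, against 7.32% of all tested genes (4.02% higher, 3.3% lower), with RPL13A (0.58), RPS23 (0.52) and RPL37 (0.51) the largest rises and RPL36A (-0.61) and RPS7 (-0.50) the falls. Without the array that stood apart 5 were called, 4 higher and 1 lower, against 6.14% of all tested genes, and RPL36A and RPL22 lost the call. The rises were then 0.51 for RPL37, 0.47 for RPL34, 0.44 for RPS23 and 0.42 for RPL13A, and the fall of RPS7 was -0.37. In resistant cells the count also moved to 4 without basal replicate 1, to 13 without replicate 1 and to 15 without replicate 2 at 0.1 µM. Parental cells had 6 of 69 called at 0.1 µM, 3 higher and 3 lower, against 11.3% of all tested genes (5.93% higher, 5.34% lower). RPS23 (0.44), RPL37 (0.40) and RPL34 (0.33) were higher, and RPL29 (-0.61), RPL36A (-0.60) and RPS7 (-0.49) lower. The fall of RPS7 in resistant cells lost the call without basal replicate 1 (-0.40, adjusted p = 0.0759), that of RPL36A in parental cells without replicate 2 at 0.1 µM (-0.52, adjusted p = 0.0507), and the rise of RPL34 in parental cells on leaving out any of 4 arrays (adjusted p = 0.053 to 0.152). Scaled to the median of all probes, the rises at 0.1 µM of RPL13A, RPS23 and RPL37 in resistant cells (0.33, 0.36 and 0.38) and of RPS23, RPL37 and RPL34 in parental cells (0.12, 0.17 and 0.01) were not called. Without the array that stood apart, 9 were called in parental cells, 5 higher and 4 lower, against 14.7% of all tested genes.

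Between the concentrations, 3 of 69 were called in resistant cells, all higher at 1 µM, against 5.68% of all tested genes (2.06% higher, 3.62% lower). RPS28 was the one whose arrays did not overlap, at 14.13, 14.17 and 14.13 at 1 µM against 13.74, 13.80 and 12.75 at 0.1 µM (0.71 ± 0.17, adjusted p = 0.00863). The 12.75 is from the array that stood apart, at -1.02 relative to the other 2 arrays, so the size of 0.71 rests in part on it. Without that array RPS28 kept the call, and RPL23 and RPL37A lost theirs. RPL39L and RPS7 were then called lower, with 6.08% of all tested genes called. The count was also 1 on leaving out any of 7 other arrays and 9 without replicate 2 of the resistant 0.1 µM group. Between 1 and 0.1 µM in parental cells 0 of 69 were called by limma, with 10 at an unadjusted p under 0.05, against 5.52% of all tested genes (3.09% higher, 2.42% lower). Without the array that stood apart 7 were called in parental cells, RPL23A, RPL31 and RPL4 higher and RPL36A, RPL39L, RPS21 and RPS27L lower, against 9.67% of all tested genes, and without resistant basal replicate 1 there was 1.

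Between the lines, 4 genes were called at all 3 treatments. RPL28, RPL37 and, on its brighter probe, RPL34 were higher and RPL22 lower in resistant than in parental cells. Of the 69, 7 were called at basal (4 higher, 3 lower), against 15.5% of all tested genes (7.24% higher, 8.25% lower). At 0.1 µM 13 were (5 higher, 8 lower), against 20.1% (9.77% higher, 10.4% lower). At 1 µM 13 were (10 higher, 3 lower), against 21.3% (9.32% higher, 11.9% lower). In all, 22 were called at 1 or more treatments. Without the array that stood apart 12 were called at basal (6 higher, 6 lower), 12 at 0.1 µM (6 higher, 6 lower) and 17 at 1 µM (12 higher, 5 lower), against 19.2%, 18.5% and 25.1% of all tested genes. At 0.1 µM 9 were called without parental replicate 1 or 3 and 20 without resistant replicate 2. At 1 µM 7 were called without parental replicate 3, and 8 without resistant replicate 2 or 3.

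RPL28, a large-subunit protein, showed the widest gap between the lines. Its log2 signal in resistant cells was 9.004, 8.89 and 8.80 at basal, 8.88, 9.15 and 8.84 at 0.1 µM and 8.93, 9.06 and 9.04 at 1 µM. Parental cells had 7.80, 8.05 and 7.97 at basal, 7.76, 7.75 and 8.29 at 0.1 µM and 7.68, 8.29 and 7.81 at 1 µM. All 9 resistant arrays thus lay above all 9 parental ones, with no call for the drug in either line. RPL28 was read by 1 dim probe, at a raw signal of 206 to 563 on arrays with a background of 70 to 94. No second probe was there to compare. The difference was 0.95 ± 0.15 at basal (adjusted p = 2.62e-05), 1.02 ± 0.15 at 0.1 µM (adjusted p = 8.08e-06) and 1.08 ± 0.15 at 1 µM (adjusted p = 2.74e-06), a signal 1.94 to 2.12 times that of parental cells.

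RPL22, which ribosomes can do without and which is known to be lost or mutated in several cancers, ran the other way. It was at 12.80, 12.84 and 12.82 at basal, 13.17, 12.92 and 13.56 at 0.1 µM and 13.10, 13.13 and 13.13 at 1 µM in resistant cells. In parental cells it was at 13.67, 13.43 and 13.46 at basal, 13.65, 13.52 and 13.53 at 0.1 µM and 13.88, 13.72 and 13.63 at 1 µM. The basal and 1 µM arrays of the lines did not overlap, while at 0.1 µM 1 resistant array reached the parental range, the one that stood apart. The difference was -0.70 ± 0.12 at basal (adjusted p = 9.29e-05), -0.35 ± 0.12 at 0.1 µM (adjusted p = 0.0323) and -0.62 ± 0.12 at 1 µM (adjusted p = 0.000278). Without the array that stood apart the difference at 0.1 µM was -0.53 (adjusted p = 0.000112).

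RPL37 differed between the lines by 0.49 at basal, 0.60 at 0.1 µM and 0.58 at 1 µM, and RPL34 by 0.45, 0.59 and 0.47. The other RPL34 probe differed by -0.40 at basal and -0.18 at 1 µM, neither called. With the mean of both probes RPL34 differed by 0.02 at basal, -0.0078 at 0.1 µM and 0.14 at 1 µM, and was called at none of them. The RPL34 difference between the lines is thus also a result of 1 probe. Scaled to the median of all probes, the basal differences of RPL37 (0.26), RPL34 (0.10) and RPL13 (0.12) were not called. The basal call of RPL37 was lost without parental basal replicate 2 or resistant basal replicate 3 (adjusted p = 0.0761 and 0.0556). RPL8 was at 14.90, 14.95 and 14.99 in resistant and at 15.52, 15.42 and 15.47 in parental basal cells, a difference of -0.52 ± 0.10 (adjusted p = 0.000403), and its second probe differed by -0.65. RPL13 was higher in resistant basal cells at 10.41, 10.52 and 10.18, against 9.71, 9.93 and 10.11 in parental basal cells (0.45 ± 0.11, adjusted p = 0.00593), but its other probe differed by -0.33 (adjusted p = 0.0831). The RPL13 call was lost without parental basal replicate 1 (0.35, adjusted p = 0.0585). At 1 µM the other called genes included RPL36A (0.47), RPL37A (0.47), RPL39L (0.38) and RPS23 (0.37) higher and RPS4X (-0.38) and RPL19 (-0.29) lower in resistant cells. RPS4X lost that call on leaving out any of 3 arrays (adjusted p = 0.0551 to 0.0647), and RPL19 under 10 of the 18 left-out arrays.

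At 0.1 µM the genes lowest in resistant against parental cells were those of the array that stood apart. RPL36 was at 13.61, 13.68 and 12.01 in resistant cells, against 13.78, 13.89 and 14.20 in parental cells, and its difference of -0.86 (adjusted p = 0.0118) was -0.31 without that array (adjusted p = 0.057). RPS21 was at 12.50, 12.44 and 10.95 in resistant cells, against 12.87, 12.94 and 13.05 in parental cells, a difference of -0.99 with that array and -0.49 without it (adjusted p = 0.000208). RPS26 was at 11.84, 12.20 and 11.25 in resistant cells, against 12.32, 12.42 and 12.82 in parental cells, with -0.76 and -0.50 (adjusted p = 0.00311). RPL35A and RPS27L, called lower with the array, were not called without it, while RPL39 was called with it (-0.55) and without it (-0.25, adjusted p = 0.0437). The fall on that array was deepest for RPL36 (-1.63), RPS21 (-1.52), RPS27L (-1.05) and RPS28 (-1.02), relative to the other 2 arrays of the group. On the same array RPL4 (0.60), RPL22 (0.51) and RPL13A (0.51) were over 0.5 above the other 2.

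**Figure D3:**
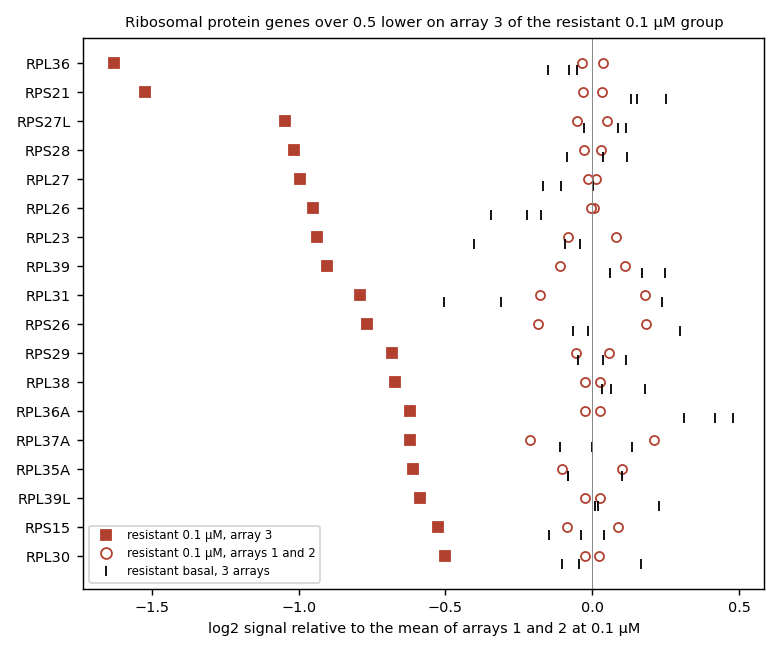
Log2 signal of the 18 ribosomal protein genes that lay more than 0.5 lower on replicate 3 of the resistant 0.1 µM group, relative to the mean of the group's other 2 arrays at 0. Squares are replicate 3, open circles the other 2 arrays and ticks the 3 resistant basal arrays. The squares reach -1.63 for RPL36, while the open circles lie near 0.

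The size of the difference between the lines depended on how arrays were scaled, and so did the majority of the calls at basal and 1 µM. Resistant arrays were dimmer, and with arrays scaled to the median of all probes 36 of 69 genes were lower and 1 higher in resistant basal cells, against 30.7% of all tested genes lower. The median of the 69 was then -0.35, against -0.19 over all tested genes, so that the genes stood -0.16 from all genes. At 0.1 µM the same scaling gave 45 lower and 3 higher (median -0.41 against -0.09), with 16.9% of all tested genes lower. It gave 38 lower and 2 higher (median -0.34 against -0.12) without the array that stood apart, with 21.3% of all tested genes lower. At 1 µM it gave 13 lower and 2 higher (median -0.21 against -0.10), with 17.4% of all lower. Scaled to the median of the tested genes instead, the counts were 4 higher and 8 lower at basal, 3 higher and 28 lower at 0.1 µM and 8 higher and 3 lower at 1 µM, with 11.2%, 11.3% and 10.8% of all tested genes lower. The counts at 0.1 µM were 4 higher and 18 lower without the array that stood apart, with 10.9% of all tested genes lower. With all arrays the medians of the 69 were -0.10, -0.29 and -0.07 under that scaling and 0.01, -0.05 and -0.02 under quantile normalization. At 0.1 µM the median scaled to the tested genes was -0.17 without the array that stood apart, against 0.04 over all tested genes. Both median scalings move every gene of an array by the same amount. The distance of the 69 genes from all tested genes is therefore the same under both by construction. With all arrays it was -0.16, -0.33 and -0.11 at basal, 0.1 and 1 µM, and the -0.33 rests in part on the array that stood apart. Unscaled, the 69 genes made up 5.99% ± 0.13 of all signal in resistant basal and 6.08% ± 0.26 in parental basal cells (SD, n = 3 each), 5.82% ± 0.85 and 6.73% ± 0.19 at 0.1 µM (6.25% and 6.37% on the resistant arrays other than the one that stood apart), and 6.26% ± 0.06 and 6.56% ± 0.08 at 1 µM. These unscaled shares did not overlap between the lines at 0.1 and 1 µM, where resistant cells had the lower ones, and overlapped at basal. Whether and by how much all ribosomal protein genes shifted together between the lines was thus not fixed by these arrays.

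**Figure D4:**
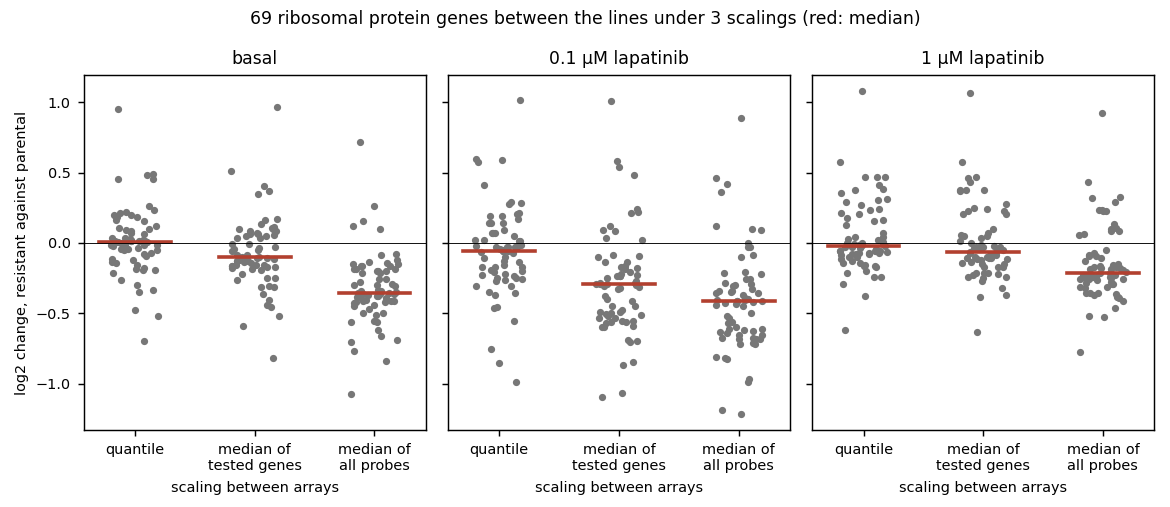
Log2 change between resistant and parental cells of 69 ribosomal protein genes at basal, 0.1 µM and 1 µM, with arrays quantile normalized, scaled to the median of tested genes or scaled to the median of all probes. Points are genes and red bars medians. The median at basal is 0.01 under quantile normalization and -0.35 under the median of all probes.

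Where a gene had several probes, they did not always agree. Of the 69 genes, 32 had several kept probes, 76 in all. Between them the 1 µM change spread by over 0.5 in 7 genes in resistant cells and in 10 in parental cells, and by under 0.25 in 16 and 15. Of the 44 kept probes that were not the brightest of their gene, 4 were called higher and 9 lower at 1 µM in resistant cells, and 8 higher and 13 lower in parental cells. The following genes were chosen after their values were seen. RPS24, known for splice forms that differ at the end of the coding region, changed by -0.05 in resistant and -0.04 in parental cells on its brightest probe, and by -0.88 and -0.80 on its second, both called. RPL6 and RPS15 each had a dim additional probe that was called lower in both lines, RPL6 at -0.82 in resistant and -0.96 in parental cells and RPS15 at -0.96 and -1.33, while their brighter probes were not called. The dimmest of 4 RPS29 probes was called higher, by 0.74 in resistant and 1.14 in parental cells. Ribosomal protein genes have many near-identical processed pseudogenes, and the probe sequences were not used here, so which transcripts such probes report was not tested.

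**Figure D5:**
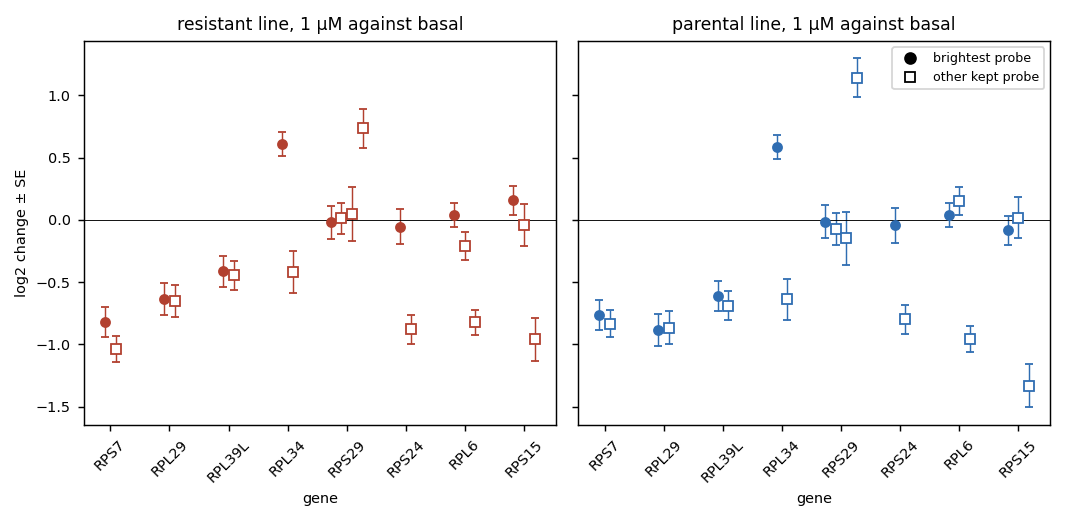
Log2 change at 1 µM against basal (± SE) of each kept probe of 8 ribosomal protein genes in resistant (left) and parental (right) cells. Filled circles are the brightest probe of a gene and open squares its other kept probes. The probes of RPS7, RPL29 and RPL39L fall together, while those of RPL34, RPS29, RPS24, RPL6 and RPS15 part.

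The size of the 1 µM change was smaller where the probe was brighter. Over the 69 genes the Spearman rho between the absolute change and the mean log2 signal was -0.56 in resistant and -0.62 in parental cells, and -0.45 for the basal difference between the lines. It is a description over genes of 1 platform.

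Genes with related roles were set beside them. At 1 µM 10.9% of all tested genes were higher and 12.1% lower in resistant cells, and 14.3% were higher and 13.6% lower in parental cells. Of 23 tested translation factors and other genes with TOP messages, 8 rose and 0 fell at 1 µM in resistant cells, with a median of 0.10, and 10 rose and 0 fell in parental cells, with a median of 0.25. EIF4B, which helps the helicase of translation initiation, changed by 0.34 in resistant and 0.83 in parental cells. The poly(A)-binding protein PABPC1 changed by 0.47 in resistant and 0.70 in parental cells, the initiation factor subunit EIF3L by 0.38 and 0.61, and the elongation factor EEF2 by 0.42 and 0.47. The small nucleolar RNA host gene SNHG5 was the largest rise of this list in resistant cells, at 0.65. Of 25 tested abundant housekeeping genes, 3 rose and 9 fell in resistant cells and 2 rose and 9 fell in parental cells. Among them the tubulin TUBB changed by -1.03 in resistant and -1.05 in parental cells and the actin-binding TMSB4X by -1.16 and -0.998. The counts of both lists are those under quantile normalization with all arrays, and their dependence on scaling was not tested. Scaling to the median of all probes moved the median of all tested genes at 1 µM to -0.06 in resistant and -0.14 in parental cells.

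Of 5 tested ribosomal proteins or relatives whose symbols lie outside the rule, RSL24D1, a factor of large-subunit assembly, rose at 1 µM by 0.37 in resistant and 0.52 in parental cells. RPL26L1, a paralog of RPL26, was called lower in parental cells (-0.41, adjusted p = 0.0115) and changed by -0.31 in resistant cells (adjusted p = 0.0626). Both were lower in resistant than in parental cells at basal, with differences of -0.60 for RPL26L1 and -0.50 for RSL24D1. FAU, a ubiquitin-like fusion of RPS30, changed by -0.13 in resistant and -0.15 in parental cells and was not called.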

How the data were processed

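Total RNA of 18 samples, grouped by the labels, was measured on Illumina arrays; signals were exported with BeadStudio, per the submitters' processing notes. The non-normalized table deposited by the authors holds probe intensity, not logged, without detection p-values. Its 48803 probes differ in number from those the labels state, so the array version is not settled. A second deposited table, quantile normalized by the authors as its values show, served as an alternative. Gene symbols came from the platform annotation (1 symbol for 28098 probes, several for 13, none for 20692) and were updated by gene identifier for 28059.

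With R 4.3.3 and limma 3.58.1, intensities were corrected by normexp (offset 50), quantile normalized and put on a log2 scale. Since the table gives no detection p-values, probes were kept (22706) where at least 3 arrays exceeded a background estimated from the mode of the array's signals (share 0.05). The brightest kept probe stood for a gene. A model with 1 mean per group over all 18 arrays (lmFit, contrasts.fit, eBayes with trend) gave 11 two-sided contrasts, adjusted over 12547 genes. The number of arrays limits the precision. Replicate numbers were not used to pair the arrays, since the labels do not say that they mark a shared culture, day or slide. Deviations of 45 same-numbered pairs had r from -0.20 to 0.17, 3 of them over 0.1. With 3 arrays per group these values cannot settle whether arrays were paired.

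Named genes were, among those called with arrays that did not overlap, the 6 largest rises and falls at 1 µM in each line and between basal lines, up to 3 of each elsewhere, a fixed panel and up to 4 called members per related list; other genes were named after seeing their values. The members and lists were chosen with earlier results of these data known. Promoter windows were searched with Python 3.11.15.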

Additional observations from a re-analysis of the deposited data

Results flagged for a closer look

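Among the related genes fixed beside the ribosomal proteins, the glycolytic enzyme ALDOA was singled out by a test of the difference of the responses at 1 µM, which was 0.75 (resistant minus parental, limma adjusted p = 0.0423), with a change of 0.44 in resistant cells (adjusted p = 0.0101) and of -0.31 in parental cells (adjusted p = 0.0653). The cause was not tested.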

How the results depend on the processing

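Of 52 named gene results, 24 kept their direction and call under every alternative, 27 lost the call under at least 1, and 2 reversed, both for RPL34 with the mean of its probes (-0.026 in parental cells at 1 µM and -0.0078 between the lines at 0.1 µM). The authors' normalized values, no background correction and the replicate block each changed 0 of the 52. With the block 11 were called in resistant and 12 in parental cells at 1 µM and 6 between basal lines. Counts of called genes moved, or turned to the other majority, as follows. With scaling to the median of all probes they were 13 in resistant cells at 0.1 µM (0 higher, 13 lower), 9 at 1 µM (4 and 5), and between the lines 37 at basal (1 and 36), 48 at 0.1 µM (3 and 45) and 15 at 1 µM (2 and 13). With the median of tested genes, chosen after seeing the data, they were 11 in parental cells at 0.1 µM and, between the lines, 12 at basal (4 and 8) and 31 at 0.1 µM (3 and 28). Those scalings without the array that stood apart, also chosen after seeing the data, gave 40 (2 and 38) and 22 (4 and 18) between the lines at 0.1 µM. The mean of probes gave 1 in parental cells between the concentrations and 5 between basal lines (2 and 3), cyclic loess 1 in parental cells between the concentrations, and no intensity trend 1 in resistant cells between the concentrations. The cause was not tested. Leaving out each array gave ranges of 4 to 15 at 0.1 µM, 9 to 20 at 1 µM and 1 to 9 between them in resistant cells, of 4 to 9, 8 to 20 and 0 to 7 in parental cells, of 5 to 12, 9 to 20 and 7 to 17 between the lines at basal, 0.1 and 1 µM, and of 0 to 0 for the differences of responses. The 3 arrays per group limit what small changes can be seen.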
